A study of Xenopus laevis with 4 samples.

Results

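The tandem arrays of 5S ribosomal RNA (rRNA) genes on chromosomes 4L and 9_10L of Xenopus laevis were examined for methylated DNA in early embryos. Members were all genes of type rRNA that a RefSeq table of genome version 10.1 places at 154733224 to 154861725 of 4L and at 23705372 to 23782594 of 9_10L. The rule gave 294 genes, 244 on 4L and 50 on 9_10L, of 375 rRNA genes and 44456 genes in all. The rule uses position and gene type and no value of the assay, but the choice was made with earlier results of these data known. The other 81 rRNA genes lie outside both arrays, and the table lists none on the homeologous chromosome 4S or on 9_10S.

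The assay was MBD-seq, a capture of methylated DNA by a fusion protein with a methyl-CpG-binding domain (H6-GST-MBD), followed by sequencing. The MBD capture group holds 2 libraries of wild-type (WT) whole embryos at 256 cells (4.5 hpf, hours post fertilization), a stage that precedes zygotic genome activation (ZGA). Each replicate pooled 250 embryos. The Input group holds 2 libraries of the same stage and genotype without capture, and entered here only through the peak calling against them. A peak is a stretch of 500 bp windows in which captured reads (tags) passed the authors' threshold, with stretches under 1000 bp apart joined. A copy inside a joined peak need not have passed the threshold itself. Each value below thus says where peaks lie and not how strongly a copy was methylated. The methods of the study call the replicates independent biological ones.

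5S rRNA is a small RNA of the large ribosomal subunit. Its genes are transcribed by RNA polymerase III, with transcription factor IIIA (TFIIIA) binding inside the gene. In Xenopus laevis the 5S genes form families of tandem repeats, among them oocyte-type genes, which are used in growing oocytes and silent in most somatic cells, and somatic-type genes. A repeat unit consists of the gene and a spacer. The table used here gives neither the type of a 5S gene nor its strand, so no member was assigned to a family.

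The lengths of the genes fitted the label. On 4L 240 of 244 genes were 119 bp long, with LOC121403375 at 120 bp and LOC121403376, LOC121403381 and LOC121403382 at 118 bp. On 9_10L all 50 genes were 119 bp long. The rRNA genes on 3L were longer and measured 153 to 155 bp, 1826 to 1827 bp or 4109 to 4152 bp. No sequence of a 5S gene or spacer was used here, so identity between copies was not measured, and spacing and length do not show it. That the copies are near-identical is an assumption below, made for both arrays, and no value here checks it.

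The 4L array was dense and regular. Its 244 genes occupied 128502 bp, or 1.90 genes per kb, and neighbouring gene starts lay a median of 312 bp apart. The distance was exactly 312 bp in 182 of 243 cases and within 5% of it in 208 (85.6%), so the spacer makes up 61.9% of a unit. The 9_10L array was sparser, with 50 genes in 77223 bp, or 0.647 genes per kb. Its median distance was 704 bp, reached exactly in 8 of 49 cases and within 5% in 37 (75.5%). The quartiles of the distance were 695 and 718 bp on 9_10L, and both were 312 bp on 4L.

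**Figure D1:**
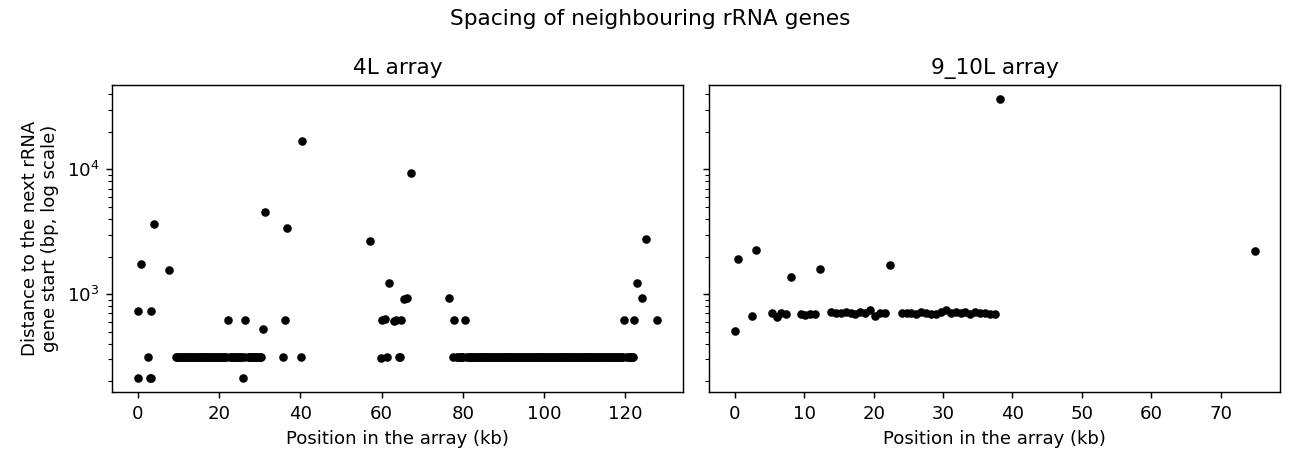
Distance from each rRNA gene start to the next (bp, log scale) against position in the array (kb), with one point per pair of neighbours. Most 4L points form a line at 312 bp and most 9_10L points a looser band around 704 bp, and single points lie above both, up to 16747 bp on 4L and 36746 bp on 9_10L.

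Both arrays also held short pseudogenes, with 78 of 109 to 123 bp in the 4L array and 33 of 108 to 129 bp in the 9_10L array. These are the only other genes the table lists there. The table does not say which gene they derive from. Counted together, genes and short pseudogenes had a median distance of 312 bp on 4L and of 700 bp on 9_10L. The 4L value could not differ from that of genes alone, because the 182 distances of exactly 312 bp form most of the combined distances. Neither median measures the spacing of the pseudogenes themselves. On 4L 207 of 244 genes lay in 6 runs of at least 5 genes without a pseudogene or break between them. The longest run had 125 genes, from LOC121403214 to LOC121403353 at 81.0 to 120 kb from the array start. On 9_10L 44 of 50 genes lay in 4 such runs, of which the longest had 21 genes, from LOC121398476 to LOC121398616.

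The arrays were broken by wider intervals. The widest on 4L, of 16747 bp, separated LOC121403375 from LOC121403376, with 10 short pseudogenes between them. The next on 4L were 9390 bp from LOC121403202 to LOC121403203, 4579 bp from LOC121403380 to LOC121403188, 3662 bp from LOC121403378 to LOC121403390 and 3358 bp from LOC121403190 to LOC121403191. On 9_10L 36746 bp separated LOC121398616 from LOC121398626, with 23 short pseudogenes between them, and no other distance there exceeded 2270 bp. Thus 48 of the 50 genes of the 9_10L array lie before this interval and 2 after it, and much of what the bounds enclose on 9_10L holds pseudogenes and no genes.

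Peaks covered far more of the 4L array than of the sequence around it. In replicate 1, 26 peaks covered 25044 bp of the array (19.5%), against 2.32% of the 50 kb to the left and 3.70% of the 50 kb to the right. In replicate 2, 7 peaks covered 103896 bp (80.9%), against 3.56% and 9.39%. Coverage was thus 6.47 times that of both flanks together in replicate 1 and 12.5 times in replicate 2. The array exceeded its flanks in both lists, by 45.4 ± 40.9 percentage points (SD, n = 2), and the lists differed in size of the excess, at 16.5 and 74.4 points. With 2 lists an exact sign-flip test of this difference cannot give a two-sided p below 0.5, so none was run.

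Few stretches of this length were covered so heavily elsewhere. Of 21319 windows of 128502 bp tiled over the 18 chromosomes, 0.0751% were covered at least as much as the array in replicate 1 (16 windows) and 0% in replicate 2, where the most covered window reached 55.3%. The median window was covered to 2.74% in replicate 1 and to 5.15% in replicate 2. Peaks took up 2.98% of all 18 chromosomes in replicate 1 and 5.48% in replicate 2.

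On 9_10L the array did not stand apart in this way. In replicate 1, 9 peaks covered 5126 bp (6.64%), against 2.80% to the left and 11.6% to the right. In replicate 2, 8 peaks covered 5363 bp (6.94%), against 7.09% and 12.0%. The mean was 6.79% ± 0.217 (SD, n = 2). Among 35483 windows of 77223 bp, 4.46% were covered at least as much in replicate 1 and 26.5% in replicate 2. The difference between the array and both flanks was -1.60 ± 1.44 percentage points (SD, n = 2), with -0.578 in replicate 1 and -2.62 in replicate 2, and its sign depended on the flanks. The mean was 1.84 points with flanks of 100 kb, and 4.32 points with flanks that begin beyond the outermost short pseudogene of the cluster, a setting chosen after the data were seen.

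**Figure D2:**
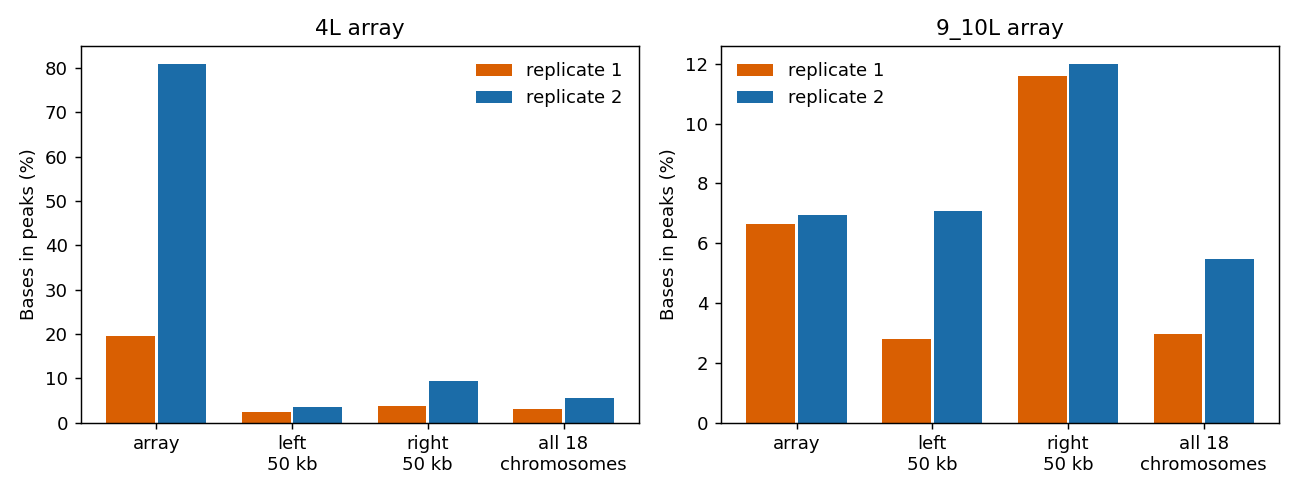
Share of bases in peaks (%) in each array, in the 50 kb to its left and right and on all 18 chromosomes, with one bar per MBD replicate. The axes of the panels differ. The 4L array reaches 19.5% and 80.9%, whereas the 9_10L array lies at 6.64% and 6.94%, below its right flank.

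The arrays therefore differed from each other in both lists. Coverage of 4L exceeded that of 9_10L by 12.9 percentage points in replicate 1 and by 73.9 points in replicate 2, or 2.94 and 11.6 times. They differed also in how the replicates compared. Replicate 2 covered 4.15 times as many bases of the 4L array as replicate 1 and 1.05 times as many of the 9_10L array, while the ratio over the 18 chromosomes was 1.84. Replicate 2 had 23909019 tags and replicate 1 had 17645240, and the tag threshold of replicate 2 was higher (15 against 12 tags). The share of tags in peaks was given as 22.16% in replicate 1 and 42.27% in replicate 2. The part of these differences in the array values was not tested.

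The same contrast was seen gene by gene. On 4L a peak overlapped 55 of 244 genes (22.5%) in the list of replicate 1, 46 of them over their whole length. In that of replicate 2, all 244 genes (100%) lay inside a peak over their whole length. Because peaks under 1000 bp apart were joined, this does not show that each copy passed the threshold. On 9_10L 2 of 50 genes (4.00%) overlapped a peak in each list, none over its whole length. Of stretches of 119 bp tiled over the 18 chromosomes, peaks met 3.54% in replicate 1 and 6.44% in replicate 2. The share on 9_10L was thus near this background, and that on 4L above it in each list. Of all genes of the 18 chromosomes, most of which are far longer, 43.2% and 56.8% overlapped a peak. Copies taken to be near-identical cannot be treated as independent of each other, so no test was made over genes.

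**Figure D3:**
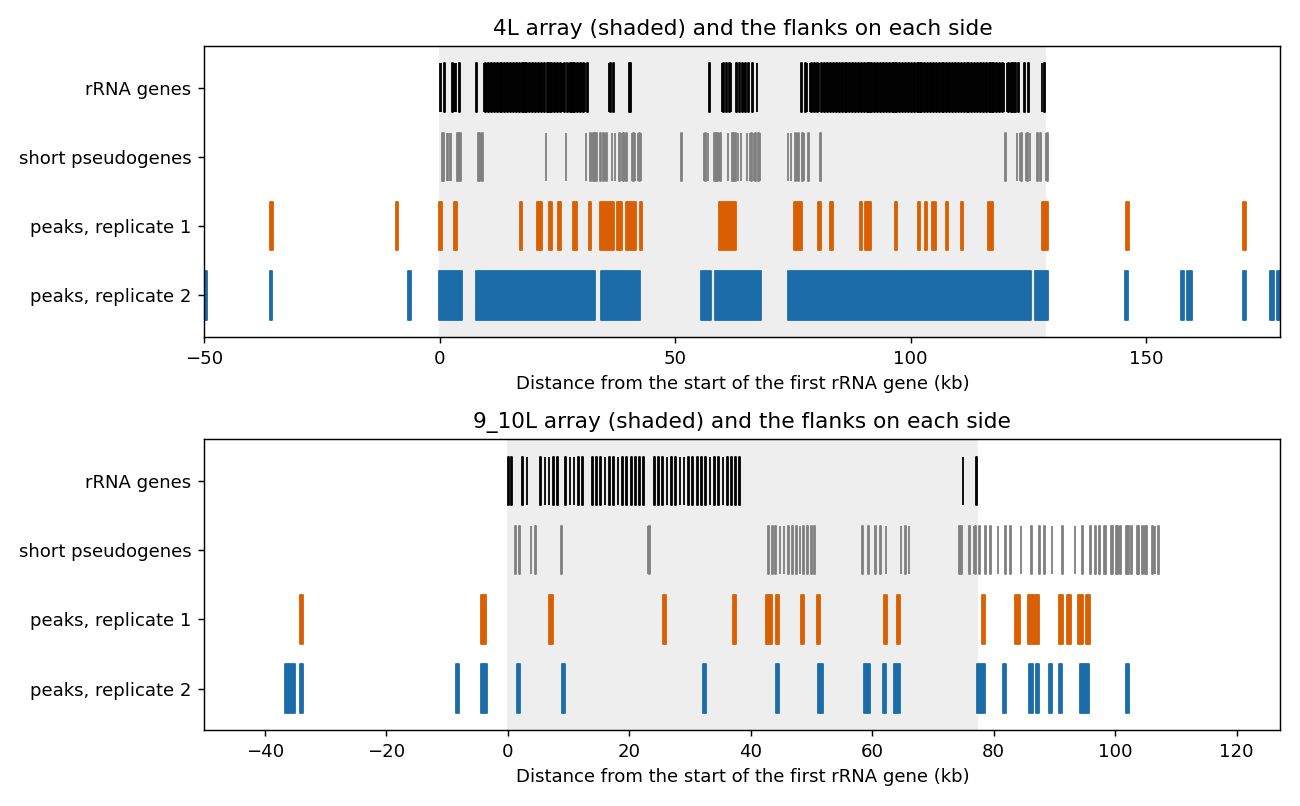
Map of both arrays (shaded) with 50 kb on each side, in kb from the start of the first rRNA gene, with rows for rRNA genes, short pseudogenes and the peaks of each MBD replicate. Outlines slightly widen the narrowest features. On 4L the blocks of replicate 2 follow the blocks of genes and pseudogenes, and on 9_10L most peaks lie where pseudogenes or no genes are.

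Within the 4L array the 7 peaks of replicate 2 followed the annotated copies from end to end. The widest, of 51463 bp at 154807224 to 154858686, ran over 145 genes, from LOC121403203 to LOC121403364, and was the widest peak of the whole list. The next, of 25311 bp at 154740852 to 154766162, ran over 70 genes, from LOC121403390 to LOC121403380, and was the fifth widest of the list. The other peaks, of 2094 to 9817 bp, held 1 to 13 genes each. The 6 gaps between them held no rRNA gene. The widest gap, of 12904 bp, lay at 42.6 to 55.5 kb, inside the interval between LOC121403375 and LOC121403376, and the next, of 5760 bp, at 68.2 to 74.0 kb.

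Stretches of the 4L array without an annotated copy were covered less than its repeats. The 5 stretches of at least 1 kb without a gene or short pseudogene summed to 23698 bp. Peaks covered 0.688% of them in replicate 1 and 6.64% in replicate 2, beside 3.01% and 6.47% of both flanks. In replicate 2, 4 of the 5 had bases in a peak, up to 32.4% of the shortest. The 6 runs of rRNA genes were covered to 17.1% and 100%, and the remaining sequence, in which genes and pseudogenes alternate, to 33.9% and 94.0%.

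In replicate 1 the 4L array was a series of short peaks with gaps. Its 26 peaks were 501 to 3615 bp wide, with a median of 680 bp and 10 peaks at 501 bp, the commonest width of the list. A peak held a median of 2 genes and at most 5. The widest peak lay at 154792415 to 154796029 and held 5 genes and 6 short pseudogenes, between LOC121403192 and LOC121403377. The 25 gaps were 617 to 16226 bp long and contained 189 genes, all of which were in a peak in replicate 2. Of these, 27 genes stood in a gap of 13277 bp at 3.76 to 17.0 kb. In the longest run, 24 of 125 genes overlapped one of 10 peaks, and the 9 gaps inside it spanned 2 to 18 genes each.

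The first and the last gene of the 4L array had a peak in both lists. LOC121403367, the first, and LOC121403382, the last, lay in peaks over all of their 119 and 118 bp. LOC121403375, before the wide interval, was likewise covered over its 120 bp in both, whereas LOC121403376, after it, was in a peak in replicate 2 only. LOC121403381 was also covered in replicate 2 only.

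The spread of 4L peaks over the repeat unit was nearly even, as peak width alone requires. In replicate 1 the share of genes with a peak at a given distance from the gene midpoint ranged from 19.7% to 23.0% over 1 unit, and in replicate 2 it was 100% throughout. The narrowest peaks, at 501 bp, are wider than a unit of 312 bp. A peak therefore cannot be assigned to the gene or to the spacer of a unit.

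On 9_10L peaks touched few genes. In replicate 1 these were LOC121398470, with 65 bp in a peak, and LOC121398615, with 71 bp. In replicate 2 they were LOC121398512, with 1 bp, and LOC121398597, with 107 bp. The other 46 genes (92.0%) overlapped no peak in either list, among them the first gene, LOC121398619, and the last, LOC121398617. Of all stretches of 119 bp, 92.0% likewise had no peak in either list and 1.98% had one in both, so the 0 genes in both lists on 9_10L carry no information about these genes. Peaks covered 5.69% of the runs of rRNA genes in replicate 1 and 1.75% in replicate 2, with 0 bp in common. The 48 genes outside peaks in replicate 1 were a median of 3460 bp from the nearest one, and the 48 in replicate 2 were 3360 bp away. The widest gap of replicate 1, of 18134 bp, held 22 genes from LOC121398622 to LOC121398484. That of replicate 2, of 22666 bp, held 29 genes from LOC121398609 to LOC121398586.

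Most peaks of the 9_10L array lay in its widest interval without rRNA genes, which spans 36746 of its 77223 bp. Between LOC121398616 and LOC121398626 there were 6 of the 9 peaks of replicate 1 and 5 of the 8 of replicate 2, which covered 9.55% and 10.5% of this interval. Before it, where 48 genes stand, 4.26% and 3.93% were covered. The 4 peaks of each list that overlapped a peak of the other also lay in this interval, at about 44, 51, 62 and 64 kb from the array start. A peak overlapped 4 of the 33 short pseudogenes of the array in replicate 1 and 3 of them in replicate 2, 1 of which was the same. In the whole array, 4 of 9 peaks in replicate 1 and 3 of 8 in replicate 2 overlapped neither an rRNA gene nor a short pseudogene.

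Replicates agreed to different degrees in the 2 arrays. On 4L the bases in peaks in both lists numbered 24588, which is 98.2% of those of replicate 1 and 23.7% of those of replicate 2. Since replicate 2 covered 80.9% of the array, most of the first share follows from that coverage. On 9_10L they numbered 1729, or 33.7% and 32.2%. In the right flank of 9_10L, 53.3% and 51.4% of covered bases were in both lists. No base was in a peak in either list in 18.8% of the 4L array and in 88.7% of the 9_10L array.

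The 4L peaks stood early in the deposited lists, and those of 9_10L ranged from early to late places. The order of the lists may reflect a rank but is not stated to. Of 131303 peaks in replicate 1, the 26 of the 4L array took places 32 to 3359. Of 222771 peaks in replicate 2, the 7 of the 4L array took places 3 to 291, with the 51463 bp peak at 3 and the 25311 bp peak at 6. On 9_10L the 3 peaks of replicate 1 near or on rRNA genes took places 36, 37 and 57, and those of replicate 2 on LOC121398597 and LOC121398512 took 97 and 146. Each of these 5 lay at least 1501 bp from the nearest peak of the other list. The 9_10L peaks found in both lists took places from 2044 to 111297 in replicate 1 and from 1128 to 98419 in replicate 2. The remaining 9_10L peaks, found in 1 list only, took places 183 and 3102 in replicate 1 and 660 and 1934 in replicate 2.

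Near-identical copies would limit what can be read from any single gene here, though identity was not measured. Short paired-end reads from 1 copy fit others equally well when the sequence is the same, and how reads with several placements were treated is not given in the sources used here. A peak at 1 copy then cannot be told apart from a peak at another, and a gap cannot be read as an unmethylated copy. Copy numbers here are those of the assembly. The part of read placement in the peaks, gaps and differences between replicates given above was not tested.

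The left 50 kb of the 4L array held 3 peaks in replicate 1 and 4 in replicate 2, and the right 50 kb 3 and 7. The right side, at 3.70% and 9.39%, was covered above the 2.98% and 5.48% of the 18 chromosomes, and the left side, at 2.32% and 3.56%, below them. Each value includes the part of the array's end peak that reaches into the flank. On the right, 2 short pseudogenes also lie up to 619 bp beyond the last gene. The other right peaks of replicate 1 were 501 and 630 bp wide, so the excess in replicate 1 rests on the end peak. The nearest protein-coding genes were LOC108704056, which ends 16.5 kb to the left, and spcs1.L, 40.8 kb to the right, which encodes a subunit of the signal peptidase complex. LOC108704056 had 501 bp in peaks in each list, and spcs1.L had 630 bp in replicate 1 and 501 bp in replicate 2. In the left flank 2 of 3 peaks of replicate 1 overlapped one of replicate 2, and in the right flank 3 of 3. On each side 1 of the shared peaks also covered the end gene of the array.

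The right flank of the 9_10L array held 39 short pseudogenes, whose gene of origin the table does not give. They ended 29.9 kb beyond the last rRNA gene. All peaks of this flank, 7 in replicate 1 and 8 in replicate 2, fell within that part, of which they covered 19.4% and 20.1%, and the 20.1 kb beyond held none. Peaks overlapped 4 of these pseudogenes in replicate 1 (10.3%) and 8 in replicate 2 (20.5%). These shares lie below the covered share of that part in replicate 1 and near it in replicate 2, but the measures differ. Over the 18 chromosomes, peaks met 3.54% and 6.44% of stretches of 119 bp but took up 2.98% and 5.48% of bases. The left flank had no short pseudogene, and 2.80% and 7.09% of its bases in peaks. The nearest protein-coding genes were LOC121398025, 102 kb to the left, and card14.L, 232 kb to the right.

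Outside the arrays, rRNA genes of the same size were less often in peaks than those of 4L, without a test of the difference. Peaks overlapped 5 of 58 such genes of 130 bp or less in replicate 1 (8.62%) and 11 in replicate 2 (19.0%). The next largest cluster of such genes, on 6L, had 26 genes at a median distance of 719 bp, with 13.2% of its bases in peaks in each list. The 23 longer rRNA genes on 3L, of 153 to 4152 bp, gave 1 and 2 genes. For tRNA genes, also transcribed by RNA polymerase III, the counts were 206 (7.89%) and 809 (31.0%) of 2612. No background of matching length is given for the 3L or tRNA genes.

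**Figure D4:**
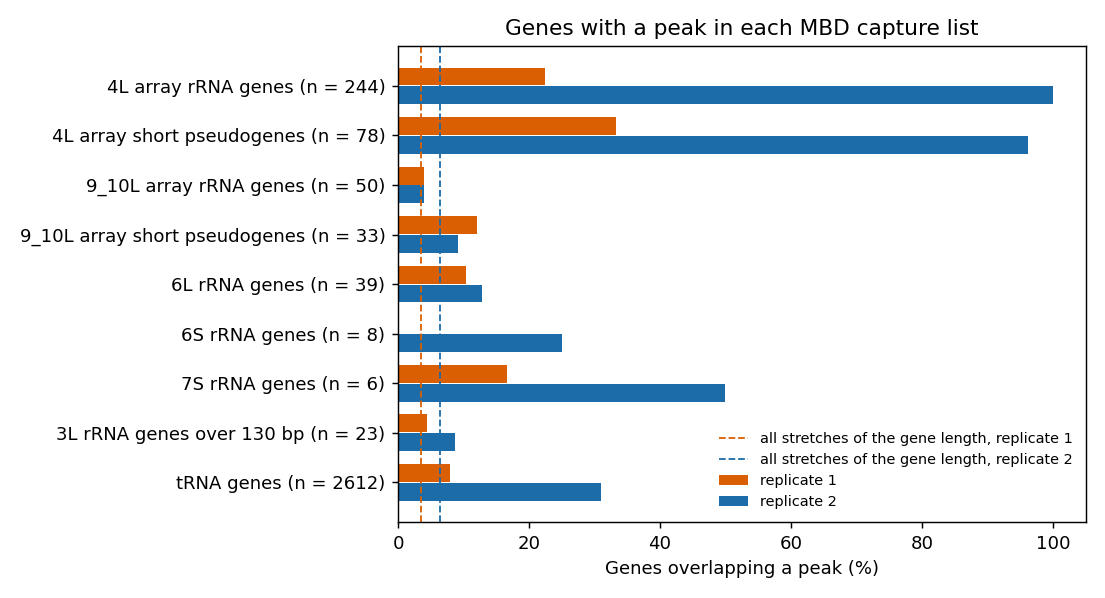
Share of genes overlapping a peak (%) for the rRNA genes and short pseudogenes of both arrays, rRNA genes on other chromosomes and tRNA genes, with one bar per MBD replicate. Dashed lines give the share of all stretches of 119 bp. The 4L genes reach 22.5% and 100%, and the 9_10L genes 4.00% in each list, near the dashed lines at 3.54% and 6.44%.

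Listed genes, most with products that transcribe, bind or store 5S rRNA, had peaks at their ends about as often as other genes. They had peaks inside them less often, without a test of the difference. The list also included the elongation factor genes eef1a1o.L and eef1a1o.S, each with an end peak in replicate 2 only. Of 28 symbols listed, 27 were matched, to 34 genes, with gtf3c5 unmatched. Among these, 6 had a peak within 1 kb of a gene end in replicate 1 and 10 in replicate 2 (17.6% and 29.4%), beside 17.9% and 30.5% of 34461 protein-coding genes. A peak at an end in both lists was found for 42sp43.L, whose product belongs to the oocyte particle that stores 5S rRNA and tRNA, and for gtf3c1.L, a subunit of transcription factor IIIC. It was also found for polr3e.L and polr3k.S, which encode subunits of RNA polymerase III. These 4 make 11.8% of the list, beside 12.2% of all protein-coding genes. A peak inside the gene was found for 13 of the 34 in replicate 1 (38.2%, beside 50% of protein-coding genes), for 15 in replicate 2 (44.1%, beside 62.8%) and for 12 in both (35.3%, beside 45.6%). The listed genes were shorter, with a median of 10500 bp beside 17200 bp.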

How the data were processed

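Per the methods and the file headers, the authors placed read pairs on the 10.1 assembly with Bowtie (4.2 in the submitters' processing notes), kept proper pairs and ran HOMER 4.11 (findPeaks, histone style) for each replicate against its own Input. Windows of 500 bp were tested, peaks under 1000 bp apart were joined, 1 tag per bp was counted at most, and 4-fold more tags than Input were required. The deposited lists hold 6 columns, and the score in the deposited lists is 1 for each peak, so only positions were used.

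Positions were made 1-based. Gene positions were those of RefSeq for that assembly. Overlap of 1 bp counted as a peak at a gene. Short pseudogenes are those of 100 to 130 bp. A run of genes needed 5 or more genes, with neighbours at most 1.5 times the median distance apart. The genes described by name are those at array ends, at the widest peaks, gaps and distances, of deviating length, and neighbours. Members and lists were chosen with earlier results of these data known. All results are descriptions of 2 lists, with the SD between them. No test was made. Counting functions were tested on simulated data. The table has no description of rRNA classes, so length replaced the planned split by description. Python 3.11.15, numpy 2.4.6, pandas 2.3.3 and matplotlib 3.10.9 were used.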

Additional observations from a re-analysis of the deposited data

How the results depend on the processing

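The SD between replicates was wide for the 4L array, so an alternative that moved a result by less than it says little, and leaving out 1 of 2 replicates cannot move a mean by more. Coverage by peaks of 50.2% ranged from 45.5% to 52.1% with both lists used, and from 19.5% without replicate 2 to 80.9% without replicate 1. The share of its genes in peaks ranged from 22.5% to 100% when 1 replicate was left out, and its excess over the flanks from 16.5 to 74.4 points. The 9_10L array depended more on settings, since its replicates lay close together. Its coverage of 6.79% became 6.47% with each list shortened to its leading part (64919 and 109595 peaks), 0.677% with peaks wider than 1000 bp only, 7.23% with peaks closer than 1000 bp joined and 7.34% with 1 kb added to the bounds. Its difference from the flanks, at -1.60 points, became -10.1 with flanks of 20 kb and reversed to 1.84 with 100 kb and to 4.32 with flanks counted from the outermost short pseudogene, chosen after seeing the data. The share of its genes in peaks, at 4.00%, became 0% with wide peaks only or with the whole gene required, and 8.00% with a peak within 100 bp. For rRNA genes outside the arrays, 11.7% became 1.23% with wide peaks only and 4.32% with the whole gene required. Without 1 replicate these values ranged from 6.64% to 6.94%, -2.62 to -0.578 points, 4.00% in both cases, and 7.41% to 16.0%. Shortening the list of replicate 2 to 134118 peaks, also chosen after seeing the data, left each result within the SD. Shortening could not remove 4L peaks, which stand at places 3 to 3359. Gene distances of 312 and 704 bp were the same by each measure. No paired analysis was possible because only MBD capture peaks were analysed here, so no Input value could be set against the capture library of the same number. Array bounds from the first to the last gene equal those of the rule and gave no other value.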

Other observations

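The clusters of 119 bp rRNA genes on other chromosomes differed among themselves. On 6L a group of 11 genes at a median distance of 878 bp, from LOC121394901 to LOC121394913, held 0 peaks in either list over 10679 bp. For 11 genes, 0 lies near the share of all stretches of 119 bp met by peaks, 3.54% and 6.44%. A second group on 6L, of 26 genes at 719 bp from LOC121394965 to LOC121394964, held 5 peaks in each list, over 4 genes in replicate 1 and 5 in replicate 2. On 7S 6 genes at 717 bp, from LOC121396654 to LOC121396661, were covered to 24.0% in replicate 1 and to 51.3% in replicate 2. On 6S 5 genes stood a median of 2600 bp apart, with 0 peaks in replicate 1 and 1 in replicate 2. These values come from few genes, and the clusters were described after the values were seen.

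Short pseudogenes inside the 4L array were in peaks in 26 of 78 cases (33.3%) for replicate 1 and in 75 (96.2%) for replicate 2. These shares lie near the coverage of the array stretches in which genes and pseudogenes alternate, 33.9% and 94.0%. Those stretches include the pseudogenes themselves, and a share of genes met is not a share of bases covered. Whether the pseudogenes differ from the sequence around them was not tested. Peaks met 3.54% and 6.44% of all stretches of 119 bp. Short pseudogenes outside both arrays gave 20 of 191 (10.5%) and 35 (18.3%).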
